A study of Mus musculus with 8 samples.

Results

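Rab GTPases are the small GTP-binding proteins that give each membrane compartment of a cell its identity and route vesicles between them. Genes were taken as members when their symbol on the array was Rab followed by a number and at most 1 further letter. This gave 57 genes measured by 87 probes, of 16593 named genes and 25697 probes on the array. Of the 57 genes, 43 were above background on enough arrays to be tested (61 probes), and 14 were not.

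A Rab protein cycles between a GTP-bound form, which sits on a membrane and recruits effectors such as motors and tethers, and a GDP-bound form, which is taken off the membrane by GDI. Exchange factors load GTP, GTPase activating proteins end the signal, and a prenyl tail added by the Rab geranylgeranyl transferase anchors the protein. Ameloblasts of the Mat stage take up degraded enamel matrix and cycle their apical membrane, both of which are vesicle-dependent tasks.

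The samples were dental tissue microdissected from lower incisors at the Mat stage, from C57BL/6 mice aged 10 weeks. Control mice (CON, labelled WT) carried MED1 fl/fl without Cre, and their incisors form enamel. The KO mice carried the same floxed alleles with Cre driven by the keratin 14 promoter, which is active in epithelia, and their incisors grow hair and lack enamel. Tissue of 3 mice was combined, and 4 CON and 4 KO arrays were hybridised on Illumina MouseRef-8 bead arrays. Whether each array of a group stands for its own pool is not in the labels, and the p-values then measure only the spread between these arrays, which may be technical. The Cre acts in Krt14-expressing cells alone, while the dissected tissue also holds cells without it. In such bulk tissue, fewer cells of a type and less RNA per cell cannot be told apart.

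The arrays had a mean intensity of 551 to 812 and 11554 to 13134 detected probes. Across probes, arrays of 1 group correlated at 0.992 to 0.993 and arrays of different groups at 0.911 to 0.923. Med1 lay at 8.06, 8.58, 8.12 and 8.42 on the CON arrays and at 7.67, 7.67, 7.30 and 7.53 on the KO arrays (log2 intensity), so that all KO arrays were lower. It fell by 0.76 ± 0.13 (SE) on the log2 scale (adjusted p 0.000746), and the place of its probe relative to the floxed exons is not known here. Of the 11 ameloblast and enamel genes on the array, Dspp, Wdr72 and Cldn16 were undetected and the other 8 were detected in both groups.

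Rab genes moved in both directions in KO. Levels are log2 intensities after background correction and quantile normalization, and a gene is called when its adjusted p in the limma fit over all tested probes was under 0.05. Of the 43 tested Rab genes, 14 were higher in KO, 15 were lower and 14 did not pass (among all 9085 tested genes 24.4% were higher and 36.5% lower). One of the 14, Rab44, was detected in KO alone and met the detection filter only through the group in which it is high. Over the 42 Rab genes detected in both groups, a restriction chosen after seeing the data, 13 (31.0%) were higher and 15 (35.7%) lower, where 21.9% and 37.5% of all 8741 such genes were. The median KO minus CON difference of the Rab genes was -0.08, beside -0.12 for all tested genes, and it turned to 0.04 under cyclic loess. Without Rab44 the rises spanned 0.18 to 1.67 with a median of 0.76, while the falls spanned -0.81 to -0.23 with a median of -0.46. Of the Rab genes detected in both groups, 5 were called higher at 2-fold or more (Rab32, Rab38, Rab7b, Rab25 and Rab3d) and 0 lower, and the shares over all such genes were 8.04% and 3.94%. The CON and KO arrays did not overlap in 11 of these Rab genes with KO higher and in 12 with KO lower, and over all such genes this occurred in 20.9% and 34.4%. By probe, 17 of the 61 tested Rab probes were higher and 19 lower, beside 22.4% and 37.3% of all tested probes. The summed linear level of the Rab genes lay between 67469 and 69232 on the CON arrays and between 69617 and 71918 on the KO arrays.

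**Figure D1:**
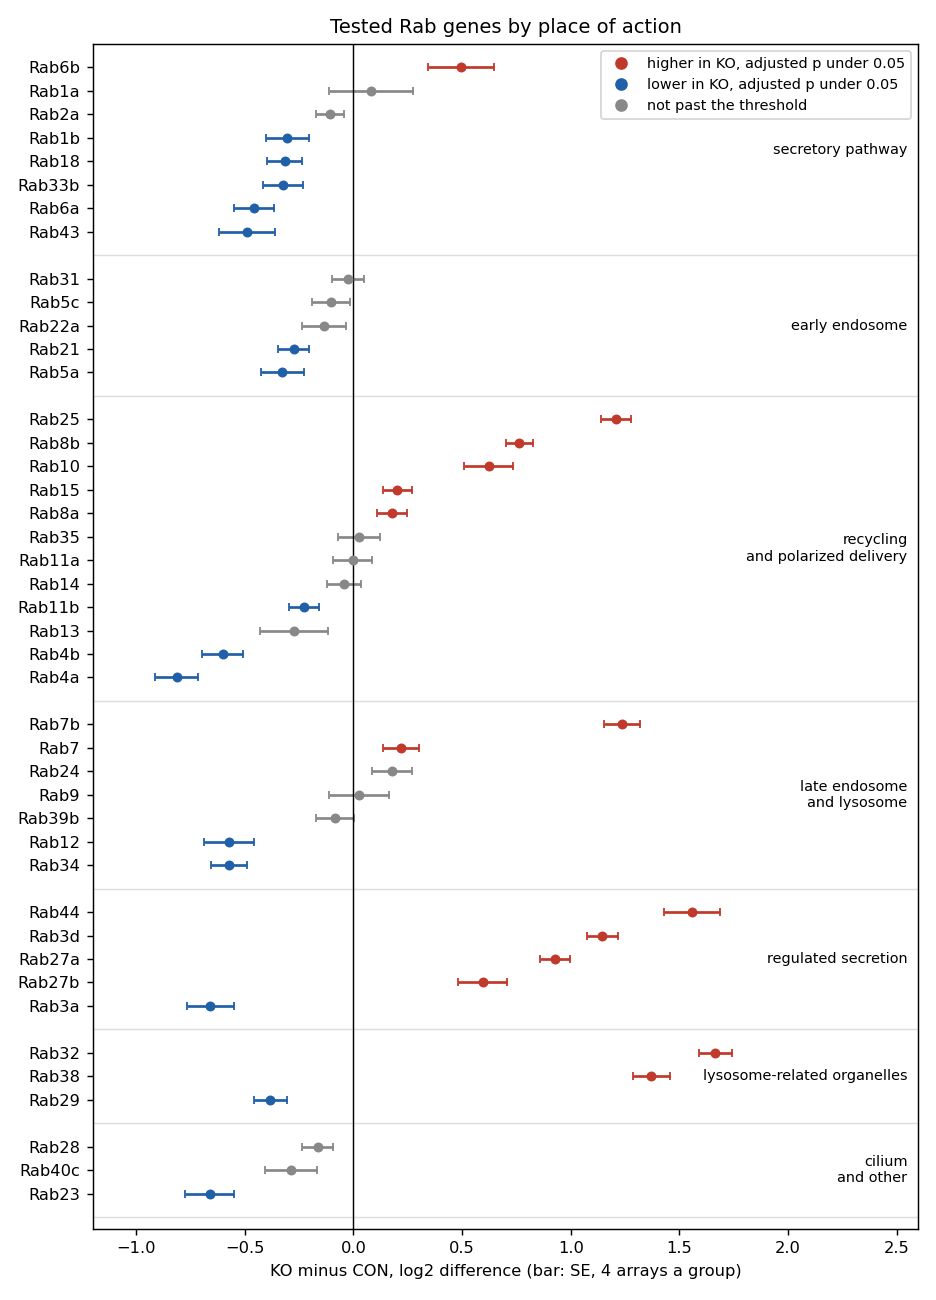
KO minus CON difference (log2, horizontal axis) of the 43 tested Rab genes, grouped by where the protein acts, with points for the difference and bars for its SE over 4 arrays a group. Of the genes detected in both groups 5 rose 2-fold or more, the falls end at -0.81, and the point of Rab44 rests on CON values at background. With median scaling in place of quantile normalization Rab7, Rab8a and Rab15 turn below 0.

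The Rabs of lysosome-related organelles, the class of compartments that includes melanosomes and lytic granules, held the largest rise. Rab32, which with Rab38 delivers enzymes to melanosomes, had levels of 9.10, 9.10, 9.03 and 9.005 on the CON arrays and 10.67, 10.84, 10.80 and 10.60 on the KO arrays. The groups lay far apart relative to the spread within each. The rise was 1.67 ± 0.08 (SE, 3.17-fold, adjusted p 4.56e-08). Rab38 was at 8.04, 7.79, 8.02 and 7.96 in CON and at 9.34, 9.18, 9.34 and 9.42 in KO. Here too every KO array was above every CON array. Its rise of 1.37 ± 0.08 (2.59-fold, adjusted p 3.91e-07) was seen by another probe of the gene as 1.18. The third gene of the class went the other way. Rab29, which acts at the trans-Golgi network and the lysosome, fell by 0.38 ± 0.08 on the log2 scale with no overlap (adjusted p 0.0017).

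Of the Rabs of regulated secretion, which dock granules at the plasma membrane, 3 of the 4 detected in both groups were higher and 1 was lower, beside 21.9% and 37.5% of all genes detected in both groups. The fifth tested gene, Rab44, a large Rab described in granules of mast cells and in osteoclasts, was undetected on all 4 CON arrays, with values of 4.76, 4.98, 4.46 and 4.71 at background, and was at 6.02, 6.33, 6.32 and 6.48 in KO. It entered the test through the KO arrays alone, so its call is not read as support and its size is known only as a bound, at least 1.74-fold higher in KO. Its other probe was undetected on all 8 arrays. Rab3d, a Rab of secretory granules in exocrine and mast cells, was at 10.27, 10.24, 10.28 and 10.25 in CON and at 11.35, 11.53, 11.44 and 11.31 in KO. The CON arrays were nearly equal and all KO arrays were above them, a rise of 1.15 ± 0.07 (2.21-fold, adjusted p 4.27e-07). Rab27a, which tethers melanosomes and lytic granules to their motors and docking sites, was at 8.65, 8.71, 8.70 and 8.79 in CON and at 9.67, 9.71, 9.64 and 9.54 in KO. Its groups were likewise separate, with a rise of 0.93 ± 0.07 (1.90-fold, adjusted p 1.8e-06). Rab27b, its close relative in granule docking, was dim, at 5.56, 5.58, 5.54 and 5.49 in CON, where 3 of 4 arrays detected it, and at 6.17, 6.31, 6.28 and 5.78 in KO. KO4 was the lowest of the KO arrays and still above CON. The rise of 0.59 ± 0.11 (adjusted p 0.00129) was 0.21 without background correction, and the other probes of Rab27b were undetected. Rab3a, which primes synaptic and other regulated vesicles, was the exception of the class, at 7.82 to 8.07 in CON and 7.10 to 7.60 in KO. It was lower with no overlap, with a difference of -0.66 ± 0.11 (1.58-fold, adjusted p 0.000566) that was -0.43 without background correction. Of the remaining members of the class, Rab3b and Rab3c were detected on no array and Rab37 on 1 CON array.

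**Figure D2:**
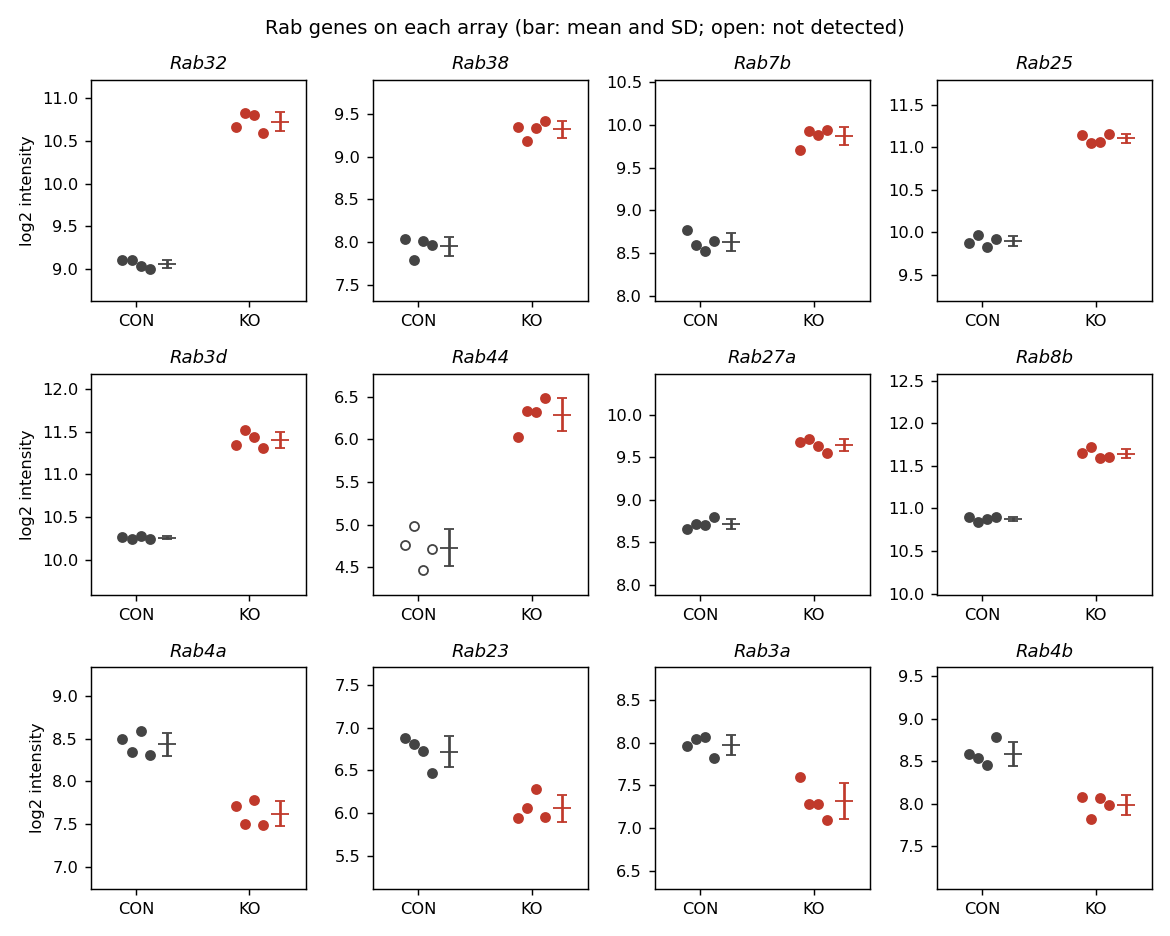
Log2 intensity (vertical axis) on each of the 4 CON and 4 KO arrays for 8 Rab genes that rose and 4 that fell, with the mean and SD beside the points and open points where the probe was not detected. In none of the 12 panels do the groups overlap, and the 4 CON points of Rab44, from 4.46 to 4.98, are at background.

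Markers of other cell types also differed between the groups, in both directions, and their part in the differences of these Rabs was not tested. The Rabs of lysosome-related organelles and regulated secretion are known from several of these cells. Of the macrophage markers, 13 of 17 on the array were higher and Msr1 was undetected, and their summed linear level was 6931 to 7215 in CON and 39620 to 41950 in KO. Of the neutrophil markers 11 of 12 were higher and Mmp8 undetected (13290 to 13800 in CON, 35990 to 38420 in KO). The brightest in KO were S100a8, S100a9 and Mmp9, with mean log2 levels of 14.13, 12.66 and 12.21 (12.65, 10.48 and 9.66 in CON). The authors list S100a8 and S100a9 among genes of epidermis development, and Mmp9 is on the osteoclast list too. The sum is therefore not particular to neutrophils. Osteoclast markers were higher in 6 of 10, with Calcr, Ocstamp, Atp6v0d2 and Itgb3 undetected, and their sum was 5231 to 5481 in CON and 15940 to 17910 in KO. Mast cell markers were tested in 2 of 10 cases (Hdc and Cpa3, both higher), Tpsab1, Tpsb2, Mcpt1, Mcpt2 and Ms4a2 were undetected, and the sum was 438.6 to 469.4 in CON and 3467 to 5003 in KO. Hdc, the histidine decarboxylase, carried this sum, which without it was 201.4 to 218.8 in CON and 270.2 to 308.1 in KO. Of the lymphocyte and NK cell markers 5 of 14 were higher and 1, the lytic granule protein Prf1, was lower (-1.69, 3.24-fold). Cd4, Cd8a, Ms4a1, Gzma, Gzmb, Klrb1c and Ncr1 were undetected. The sum was 1559 to 2112 in CON and 897.7 to 1051 in KO. Prf1, at a mean of 10.44 in CON and 8.74 in KO, carried this fall, while the other 5 tested markers rose. Of those, Cd3g, Cd3e, Cd3d and Nkg7 were detected in KO alone. Of 12 melanocyte markers, 9 were undetected on every array, among them the melanin enzymes Tyr and Tyrp1 and the melanosome protein Pmel. The melanocyte sum was 1639 to 1915 in CON and 1465 to 1599 in KO, and it rested on the tested genes Dct (-0.63) and Ednrb (0.22, not past). Markers of cornified epidermis were higher in 14 of 18, with Flg2, Ivl and Krt2 undetected, and their sum was 6813 to 8000 in CON and 81050 to 84060 in KO. Skeletal muscle markers were higher in 15 of 16 (22130 to 23360 in CON, 73180 to 81410 in KO), endothelial ones in 6 of 11 (10800 to 12190 and 15140 to 16750) and those of fibroblasts and odontoblasts in 7 of 11 (42560 to 44150 and 56470 to 63480), with Casq1, Kdr and Dmp1 undetected. The salivary gland list had 4 of 12 higher, 6 lower and Smgc undetected, and its sum fell from between 3422 and 4059 in CON to between 2402 and 2704 in KO.

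Among the Rabs of recycling and polarized delivery, which return endocytosed cargo to the surface and sort it to the apical or basolateral side, 5 of 12 tested genes were higher and 3 were lower, or 3 and 5 with median scaling (24.4% and 36.5% of all tested genes in the main setting). Rab25, the epithelial member of the Rab11 subfamily, was at 9.87, 9.97, 9.83 and 9.92 in CON and at 11.15, 11.05, 11.07 and 11.16 in KO. No KO array came near CON. The rise was 1.21 ± 0.07 (2.31-fold, adjusted p 1.98e-07). Rab11a, the widely expressed member of that subfamily, was at 8.08, 8.23, 8.33 and 8.24 in CON and at 8.31, 8.19, 8.34 and 8.04 in KO. The groups overlapped almost fully, and the SE of its difference was 0.09 (adjusted p 0.986). Rab11b was lower by a small but separate step, from 13.30 to 13.36 in CON to 13.02 to 13.19 in KO (adjusted p 0.0173). Rab8b, of basolateral and ciliary delivery, rose by 0.76 ± 0.06 (1.70-fold, adjusted p 4.06e-06) and by 0.66 on its other probe, and the rise was 0.42 under median scaling. Its relative Rab8a was higher by 0.18 ± 0.07 (adjusted p 0.0453), a call that was lost without any 1 of 7 of the arrays (KO2 is the exception). Rab10, also of basolateral delivery, was between 8.11 and 8.39 in CON and between 8.68 and 9.16 in KO, a rise of 0.62 ± 0.11 (adjusted p 0.000927), and its other probe gave 0.65. Rab15, of endocytic recycling, was higher by 0.20 ± 0.07 (adjusted p 0.0254), which did not hold without CON1, CON2, CON3 or KO4. Rab4a and Rab4b, of fast recycling, were lower. Rab4a was at 8.30 to 8.59 in CON and 7.48 to 7.78 in KO, the largest fall of the family (-0.81 ± 0.10, 1.76-fold, adjusted p 6.18e-05). Rab4b moved with it, from between 8.45 and 8.78 to between 7.82 and 8.08 (-0.60 ± 0.09, adjusted p 0.000353). Rab35, also of fast recycling, Rab14 and Rab13 had differences of 0.03, -0.04 and -0.27 that did not pass, and Rab17 was undetected.

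The late endosome and lysosome Rabs were mixed, with 2 higher and 2 lower of 7 tested, beside 24.4% and 36.5% of all tested genes. These counts were 1 and 2 with median scaling and 3 and 2 with cyclic loess. Rab7b, which carries cargo from late endosomes towards the Golgi, was at 8.77, 8.59, 8.52 and 8.64 in CON and at 9.71, 9.94, 9.89 and 9.94 in KO. All KO arrays were clearly above CON, by 1.24 ± 0.08 (2.36-fold, adjusted p 7.92e-07). Rab7, the general Rab of late endosomes and lysosomes, was at 11.82, 11.54, 11.68 and 11.61 in CON and at 11.78, 11.84, 11.98 and 11.93 in KO. CON1 reached into the KO range. The difference of 0.22 ± 0.08 had an adjusted p of 0.0421, the call was lost without CON2, CON3, CON4, KO2, KO3 or KO4, and the other Rab7 probes gave 0.15 and 0.002 and did not pass. Rab34, which positions lysosomes, and Rab12, which sends recycling cargo to lysosomes, were both lower with no overlap, each at -0.57 (adjusted p 0.000197 and 0.0017). Rab9, of transport from late endosomes to the Golgi, gave 0.03 on the probe that stood for it and -0.63 (adjusted p 0.00111) on a second probe of nearly equal mean level, so no direction is given for it. Rab24 and Rab39b, of autophagy, had differences of 0.18 and -0.08 that did not pass. Rab9b, Rab36, Rab39 and Rab42 were undetected.

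In the secretory pathway 5 of 8 tested genes were lower and 1 was higher, with a median difference of -0.31, beside 36.5% and 24.4% of all tested genes. Under cyclic loess 1 of the 8, Rab6a, was still lower. Rab6a, the main Golgi Rab, was at 9.76 to 10.12 in CON and 9.33 to 9.54 in KO and fell by 0.46 ± 0.09 (adjusted p 0.0017). Of its other probes, 1 passed at -0.27 and 1 did not at -0.14. Rab6b, the isoform best known from neurons, was higher by 0.49 ± 0.15 (adjusted p 0.0176), with CON1 at 7.09 inside the KO range of 7.01 to 7.42, and its call did not hold without KO4. Without background correction its rise was 0.26. Of the neuron and glia markers 3 of 12 were tested and higher and 8 undetected, Snap25 and Tubb3 among them, and their sum was 604.7 to 633.5 in CON and 1129 to 1319 in KO. Their part in the change of Rab6b was not tested. Rab43 and Rab33b of the Golgi and Rab18 of lipid droplets and the endoplasmic reticulum were lower, with differences of -0.49, -0.33 and -0.32 (adjusted p 0.00882, 0.0115 and 0.00711), the first with overlapping arrays. Of the Rabs that carry cargo from the endoplasmic reticulum to the Golgi, Rab1b fell by 0.30 ± 0.10 (adjusted p 0.022), which did not hold without CON1, CON3, KO1 or KO4. Rab1a and Rab2a gave 0.08 ± 0.19 and -0.11 ± 0.07 and did not pass. Rab2b, Rab30 and Rab33a were undetected, and Rab19 was detected on 2 KO arrays.

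Of the 5 tested early endosome Rabs 0 were higher and 2 lower, beside 36.5% of all tested genes, and 0 were lower under cyclic loess and 5 under median scaling. Rab5a, which drives the fusion of early endosomes, was at 10.90, 10.78, 10.95 and 11.04 in CON and at 10.80, 10.49, 10.43 and 10.65 in KO. KO1 lay within the CON range and the other KO arrays below it. The difference was -0.33 ± 0.10 (adjusted p 0.0156), while its second probe gave 0.11 and did not pass. Rab21, which carries integrins into the cell, was lower with no overlap (-0.28 ± 0.07, adjusted p 0.00715). Rab5c, Rab22a and Rab31 gave -0.10, -0.14 and -0.02 and did not pass, and Rab20 was undetected. Of the remaining Rabs, Rab23, an inhibitor of hedgehog signalling at the cilium, was at 6.46 to 6.88 in CON and 5.94 to 6.28 in KO, a difference of -0.66 ± 0.11 (1.58-fold, adjusted p 0.0006) that was -0.30 without background correction. Rab28, of the cilium, and Rab40c, which carries a SOCS box, did not pass at -0.16 and -0.29, and a second probe of Rab28 passed at -0.30. Rab40b was undetected.

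In all, 14 Rab genes had several tested probes. The probes of 8 differed in whether they passed (Rab1b, Rab5a, Rab6a, Rab7, Rab8a, Rab9, Rab28 and Rab34), and 0 genes had probes called in opposite directions.

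Close relatives were compared as the log2 ratio of both genes within each array, so that any scaling common to an array drops out. Of 19 listed pairs, 12 had both genes tested. The ratio of Rab3a to Rab3d was lower in KO, with a difference of -1.80, as were those of Rab11a to Rab25 (-1.21), Rab6a to Rab6b (-0.95) and Rab8a to Rab8b (-0.59). The ratio of Rab10 to Rab13 was higher by 0.90 and that of Rab27a to Rab27b by 0.33. In these 6 pairs the KO and CON arrays did not overlap, and the two-sided exact permutation test gave 0.0286, the smallest p that 4 against 4 arrays allow. Adjusted over the 12 pairs this is 0.0571, so 0 pairs passed, and 7 passed without background correction. At this number of arrays no pair could pass the adjustment alone. The count turns on how many pairs reach the smallest p together, so it says nothing about a single pair. Rab3a with Rab3d and Rab6a with Rab6b were the pairs whose genes were called in opposite directions. The ratio of Rab32 to Rab38, both of which rose, differed by 0.29 (exact p 0.0571, adjusted 0.098). In the other 5 pairs (Rab1a and Rab1b, Rab4a and Rab4b, Rab5a and Rab5c, Rab11a and Rab11b, Rab22a and Rab31) the arrays overlapped, with ratio differences from -0.22 to 0.39.

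**Figure D3:**
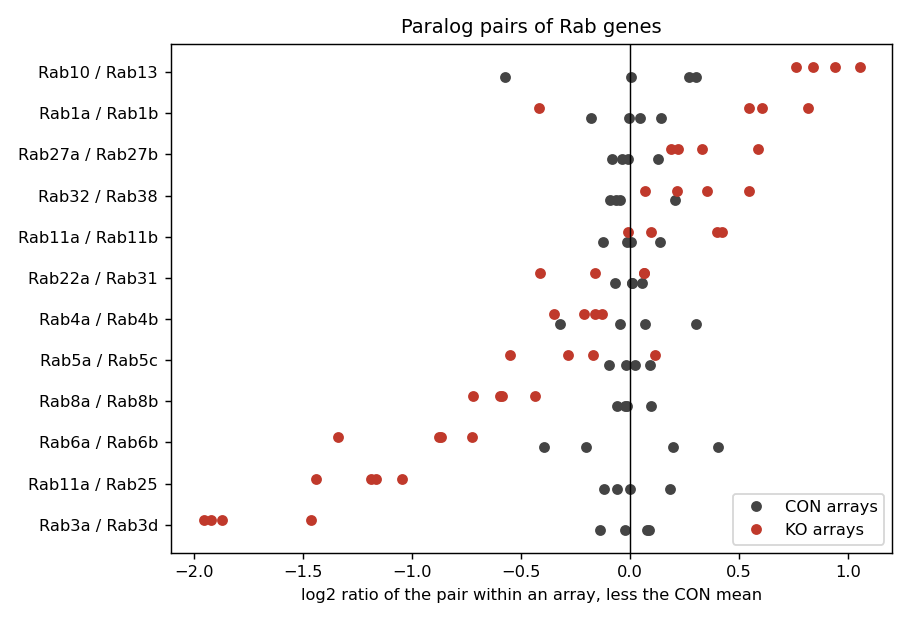
Log2 ratio of the members of 12 Rab pairs within each array, less the mean of the CON arrays (horizontal axis), with a point for each of 4 CON and 4 KO arrays. The KO points of Rab3a over Rab3d lie about the mean of -1.80 and those of Rab11a over Rab25 about -1.21, apart from CON. The arrays of Rab32 over Rab38 and of 5 other pairs overlap.

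The DNA before the start of the genes was read for the called Rabs. RefSeq windows of 250 bases upstream of a transcript start (GRCm38.p6) were matched to 47 of the 57 members, with 59 windows in all. The 4 largest rises with a window are printed 5′ to 3′ on the gene's strand, because these are members that rose together, and capitals mark a searched motif.
Rab32, chr10:10558208-10558457, minus strand: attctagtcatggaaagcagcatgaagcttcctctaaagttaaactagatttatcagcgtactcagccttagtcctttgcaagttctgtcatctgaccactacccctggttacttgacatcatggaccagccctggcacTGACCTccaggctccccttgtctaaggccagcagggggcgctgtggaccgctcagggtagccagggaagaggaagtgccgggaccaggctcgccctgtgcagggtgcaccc
Rab25, chr3:88548280-88548529, minus strand: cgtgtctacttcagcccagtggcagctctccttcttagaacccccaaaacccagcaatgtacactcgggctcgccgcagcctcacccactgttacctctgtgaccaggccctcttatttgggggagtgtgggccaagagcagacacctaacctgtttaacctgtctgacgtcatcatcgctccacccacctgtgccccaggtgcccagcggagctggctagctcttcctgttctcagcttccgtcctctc
Rab3d, chr9:21918184-21918433, minus strand: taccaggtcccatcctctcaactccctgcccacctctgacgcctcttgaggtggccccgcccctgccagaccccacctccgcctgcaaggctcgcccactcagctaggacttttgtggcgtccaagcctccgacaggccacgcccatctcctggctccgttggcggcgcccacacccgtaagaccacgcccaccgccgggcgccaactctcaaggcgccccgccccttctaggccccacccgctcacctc
Rab27a, chr9:73063898-73064147, plus strand: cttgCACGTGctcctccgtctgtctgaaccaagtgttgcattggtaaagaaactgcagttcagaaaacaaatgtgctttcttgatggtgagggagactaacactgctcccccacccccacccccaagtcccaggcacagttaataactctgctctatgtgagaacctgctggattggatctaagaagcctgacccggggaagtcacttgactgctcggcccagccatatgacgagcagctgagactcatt
The motifs searched on both strands were CACGTG (the E-box), TCATGTG (the core of the M-box of pigment cell genes), TGANTCA (the AP-1 site) and AGGTCA (the core of nuclear receptor elements, read as TGACCT from the other strand). A gene was counted when any of its windows matched, so counts of genes and shares of windows are not like for like. For a gene with several windows, the one with CACGTG was printed. CACGTG was in 1 of 10 Rab genes called higher, Rab27a, at 246 bases before the start, and in 3 of 13 called lower, Rab5a, Rab21 and Rab23, beside 6.02% of all 32851 windows. AGGTCA was in 1 higher gene, Rab32, at 111 bases before the start, and in 1 lower gene, Rab43, beside 14% of all windows. TCATGTG and TGANTCA were each in Rab15, called higher, and Rab34, called lower, beside 3.25% and 6.75% of all windows. Among the other members with a window, CACGTG was in Rab20, TCATGTG in Rab28 and AGGTCA in Rab31. A match is a description of the letters and not a binding site. The Rab windows had a median GC content of 60.4% and 15 CpG, where all windows had 52.4% and 6. Windows of the higher Rabs (61.6%) and of the lower Rabs (62.8%) were close to each other.

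The genes that load, end and read the Rab signal were taken from lists and described by counts, beside the 24.4% higher and 36.5% lower of all tested genes. Over all lists, 16 regulators were higher and 31 lower. These counts were 11 and 56 with median scaling and 29 and 26 with cyclic loess, so the balance depended on the scaling. So did that of all 12838 tested probes, with 2878 higher and 4787 lower in the main setting. Median scaling gave 2199 and 6809 of these probes, and cyclic loess 3731 and 2850. Of the 10 tested genes of Rab prenylation and recycling from membranes, 0 were higher and 3 lower (9 lower with median scaling, 2 with cyclic loess and 6 without background correction). Rabggta, the alpha subunit of the geranylgeranyl transferase, fell by 0.83 ± 0.07 (1.78-fold, adjusted p 3.06e-06), while its partner Rabggtb gave -0.22 and did not pass. Yipf2 and Yipf4, Golgi membrane proteins of a family that binds Rabs, were lower, at -0.55 and -0.49, and Yipf6 and Rabac1 did not pass at -0.32 and -0.17.

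Of 33 tested exchange factors, 5 were higher and 12 lower, against 5 and 20 with median scaling and 9 and 10 with cyclic loess. Of the 31 detected in both groups, 3 were higher and 12 lower, beside 21.9% and 37.5% of all genes detected in both groups. Rab3il1 and Rab3ip, exchange factors of Rab8, were lower. Rab3il1 fell by 1.29 ± 0.10 (2.45-fold, adjusted p 2.68e-06) and Rab3ip fell by 0.90 ± 0.07 (1.87-fold, adjusted p 3.06e-06). Dennd6b fell by 0.89. Dennd1c was undetected in CON and at least 3.53-fold higher in KO, Dennd2d likewise at least 1.34-fold, and Rin2, an exchange factor of Rab5, rose by 0.69 ± 0.06. Of 25 tested GTPase activating proteins, 2 were higher and 11 lower, against 1 and 15 with median scaling and 4 and 10 with cyclic loess. Tbc1d10c rose by 1.03 ± 0.10 (2.04-fold, adjusted p 1.25e-05). Tbc1d1, Tbc1d9, Tbc1d2, Sgsm3 and Tbc1d19 were lower, at -0.84, -0.76, -0.64, -0.64 and -0.52.

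Of 31 tested effectors, 9 were higher and 5 lower, with a median of 0.08, against 5 and 13 with median scaling and 16 and 4 with cyclic loess. Of the 28 detected in both groups, 8 were higher and 4 lower, beside 21.9% and 37.5% of all genes detected in both groups. Rab11fip2, which links Rab11 to myosin Vb, fell by 0.81 ± 0.06 (1.75-fold, adjusted p 2.47e-06), and Rab11fip5 of the same family was higher by 0.47. Rilpl2 and Rilpl1, related to the Rab7 effector Rilp, rose by 0.54 and 0.40. Rims2, a Rab3 effector of exocytosis, was undetected in KO and at least 1.61-fold lower there, and Sh3tc2, an effector of Rab11, was undetected in CON and at least 1.14-fold higher in KO.

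The choice of scaling bore on the smaller Rab changes. The median difference over all tested probes was -0.14 with quantile normalization, -0.32 with median scaling and 0.02 with cyclic loess, and the share of calls that were higher was 37.5%, 24.4% and 56.7%. Beside these shifts, the median of the Rab genes was -0.08, -0.34 and 0.04. Under median scaling Rab7, Rab8a and Rab15 turned to -0.14, -0.19 and -0.12, and Rab35, at 0.03 before, was called lower at -0.30. Under cyclic loess Rab1b, Rab5a, Rab11b, Rab18, Rab21, Rab33b and Rab43 no longer passed. Of the 29 called Rab genes, 14 passed under every alternative in which they were tested, of 22 in all. Among the rises they included Rab32, Rab38, Rab7b, Rab25, Rab3d, Rab27a, Rab8b, Rab10 and Rab27b, and among the falls Rab4a, Rab23, Rab3a and Rab4b. Rab27b was tested in 21 alternatives, as it dropped out when detection on every array was required. The last of the 14, Rab44, was detected in KO alone and was tested in 17. It was not tested when detection on every array was required or when a KO array was left out. The call of Rab44 is therefore not read as support.

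**Figure D4:**
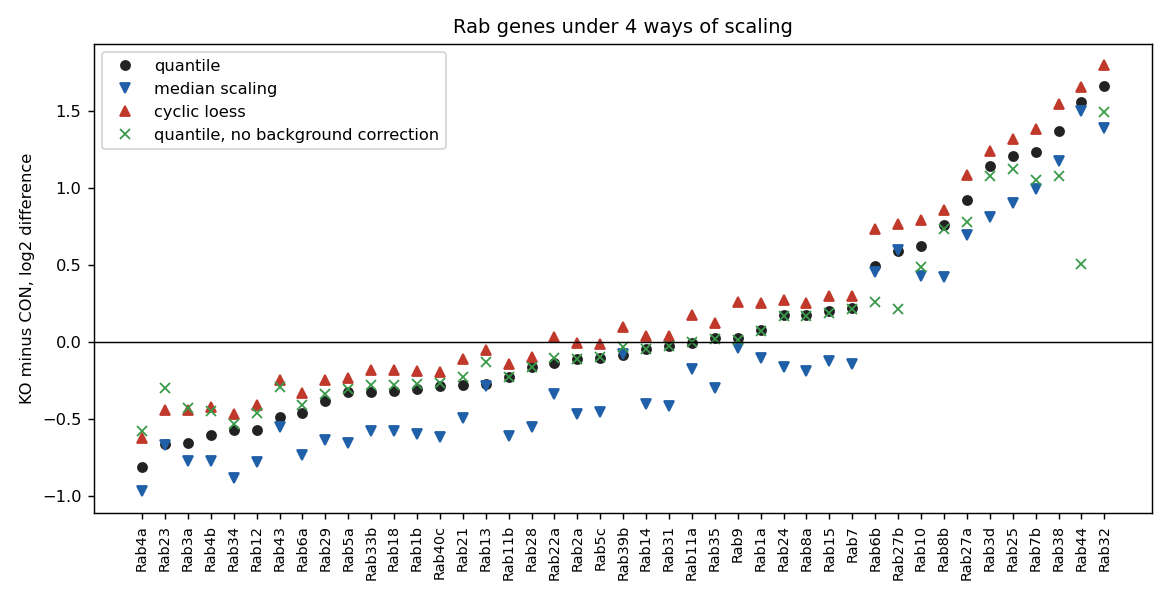
KO minus CON difference (log2, vertical axis) of the 43 tested Rab genes, ordered by the quantile result, under quantile normalization, median scaling, cyclic loess and quantile normalization without background correction. Of the genes detected in both groups Rab32 is the highest under each of the 4. The points of Rab44, undetected in CON, show no measured size and drop from 1.56 to 0.51 without background correction.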

How the data were processed

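Total RNA of the Mat stage tissue was hybridised to 8 Illumina MouseRef-8 arrays, and the authors summarised the beads in GenomeStudio (version: not given in the sources used). Deposited was a table of linear, non-normalized mean intensity values of 25697 probes, with a deposited detection p-value for each array. A second deposited table held intensity values normalized between arrays by the authors, used as an alternative. Columns left unused numbered 0.

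For background correction neqc of limma 3.58.1 (R 4.3.3) was run with the detection p-values, an offset of 16, quantile normalization and log2. Probes with a detection p under 0.01 on at least 4 of 8 arrays were tested, which left 12838. The KO and CON arrays were compared with lmFit and eBayes, two-sided, without covariates, with Benjamini-Hochberg adjustment over all tested probes. Differences are KO minus CON with their SE, and levels are compared only within a probe. Names came from the platform annotation, in which 23978 probes had a symbol and 1719 are unnamed here. A gene with several probes was read from its brightest, by mean over all arrays. For a gene undetected in a whole group, the fold is a lower bound against the higher of the probe's value and the lowest detected value of each array. Summed levels are linear values after normalization, added over the genes of a list on the array. The number of arrays limits the precision.

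The members, roles, lists and pairs were chosen with earlier results of these data known. Values of every array are given for Rabs that changed by 2-fold or more, those detected in 1 group and Rab27a, Rab27b, Rab11a, Rab5a and Rab7, and of each regulator list the 6 genes with the largest moderated statistic are named. Pairs were tested by an exact permutation test, adjusted over 12 pairs. The fit was tested on simulated data. Alternatives were the deposited normalized values, other background corrections, scalings, offsets and filters, a trend with robust variance, array weights, a replicate block, a stricter threshold, the methods' t-test, other probes of a gene, and leaving out each array. Replicate numbers did not mark shared litters or days in the labels. Figures were drawn with matplotlib 3.10.9 in Python 3.11.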

Additional observations from a re-analysis of the deposited data

Results flagged for a closer look

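Rab18, the Rab of lipid droplets and the endoplasmic reticulum, had an array marked as apart from the rest in each group, relative to the range of that group. CON4 was at 9.938 on the log2 scale while the other CON arrays lay between 9.646 and 9.678. KO1 was at 9.458 while the other KO arrays lay between 9.401 and 9.406. The KO gap was small in size (SD of the KO arrays 0.028) and was marked because the other KO arrays were nearly equal. These were the 2 groups marked of 86 examined over the 43 tested Rab genes, and chance marks about 1 in 20. The groups of Rab18 did not overlap, and its call held without each array in turn.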

How the results depend on the processing

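The number of the 61 tested Rab probes called lower was 19 with the settings reported. It was 31 with median scaling, 10 with cyclic loess and 5 with the methods' t-test at a p under 0.005 and a 1.5-fold change. Calls over all 12838 tested probes shifted too, from 2878 higher and 4787 lower. They were 2199 and 6809 with median scaling, 3731 and 2850 with cyclic loess, and 1733 and 1535 with that t-test. The cause was not tested. The median difference of the Rab genes, -0.08, was -0.042 with the deposited normalized values, -0.042 without background correction, -0.34 with median scaling, 0.039 with cyclic loess, -0.052 with an offset of 50 and -0.10 when detection on all 8 arrays was required. Leaving out each array gave medians from -0.0951 to -0.0547, 12 to 16 Rab probes higher and 17 to 20 lower. Of the regulators, 16 higher and 31 lower became 11 and 56 with median scaling, 29 and 26 with cyclic loess and 6 and 13 with the methods' t-test at those limits, and leaving out each array gave 11 to 17 higher and 28 to 32 lower. Restricting to probes detected in both groups, chosen after seeing the data, gave 16 Rab probes higher and 19 lower. The count of pairs that passed went from 0 to 7 without background correction, and it is not given with an array left out. No pair could pass alone at this number of arrays, so the count turns on how many reach the smallest p together. Median scaling turned Rab7 to -0.14, Rab8a to -0.19, Rab15 to -0.12 and Rab35 to -0.30, and other probes turned Rab5a to 0.11, Rab8a to -0.020 and Rab9 to -0.63. Of 29 called Rab genes 15 lost the call in at least 1 alternative, and 8 genes that had not passed did so in at least 1. Genes past the threshold in neither setting were given no direction. The replicate numbers did not pair the arrays: same-numbered arrays correlated at -0.0113, 0.0022, -0.00216 and 0.0192 in their deviations, and with the replicate number as a block 14 Rab probes were higher and 19 lower, where 17 and 19 were without it. Without background correction the difference of the dim Rab27b was 0.21.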
